A study of Homo sapiens with 9 samples.

Results

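The mitochondrial ribosomal protein genes, named MRPL for the large subunit and MRPS for the small one, were followed through PTBP1 knockdown in U251 cells, an established human glioblastoma line. Members were the rows of the expression table whose symbol begins with MRPL or MRPS and a number. The pattern matched 78 of 22295 rows, 0 of the matches was a pseudogene or an antisense row, and all 78 are protein-coding genes. The 9 RNA-seq libraries fall into 3 groups of 3. The sh-Luci-3d cells were infected for 3 days with a control lentivirus whose sh-RNA targets luciferase, and the sh-Ptbp1-3d and sh-Ptbp1-7d cells were infected for 3 or 7 days with a lentivirus whose sh-RNA targets PTBP1, an RNA-binding splicing regulator. From 2 days after infection, cells were kept in neuronal induction medium with N2, B27, forskolin and dorsomorphin. All groups therefore share the cell line, a lentivirus and the kind of medium, but the sh-Ptbp1-7d cells were in that medium for longer. The knockdown rests on a single sh-RNA in a single cell line. No sh-Luci library of 7 days was analysed here. In the comparisons with sh-Ptbp1-7d, the effects of PTBP1 knockdown, of the additional days and of the longer time in the medium cannot be told apart.

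Mitochondria keep a small genome and translate its messages on ribosomes of their own. The ribosomal RNAs of these particles come from mitochondrial DNA, whereas all of their proteins are encoded in the nucleus, made in the cytosol and imported. Some of the proteins descend from the bacterial ancestor, and others were added in the mitochondrial lineage. The products of mitochondrial translation are core subunits of the respiratory chain and of ATP synthase, so the genes matter for tissues that depend on respiration, and inherited defects in several of them cause disease of brain, heart or liver.

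The expression unit was FPKM, a fragment count divided by transcript length and by library size, and it can be compared between genes of different length. PTBP1 itself stood at 110.7, 111.9 and 124.4 FPKM in the sh-Luci-3d libraries, at 66.2, 64.4 and 61.0 FPKM in sh-Ptbp1-3d and at 49.7, 50.7 and 50.96 FPKM in sh-Ptbp1-7d. The groups did not overlap, and the log2 fold change of sh-Ptbp1-3d against sh-Luci-3d was -0.85 ± 0.07 (SE, limma adjusted p = 0.00314). Of the markers of a glioma line, VIM, NES, CD44 and SOX9 were above 28 FPKM in every library, GFAP and S100B were below 1.2 FPKM, and the T cell marker CD3E was listed at 0 throughout. The neuronal gene STMN2 was listed at 0 in 8 libraries and at 11.5 FPKM in sh-Ptbp1-3d replicate 3, where DCX was also higher than elsewhere, at 2.14 FPKM. What these genes have to do with the members' values in that library was not tested, and counts without it are given beside the first result. Markers also changed by day 7 against day 3, where VIM fell by 1.91 and TUBB3 by 1.42 on the log2 scale, MAP2 rose by 0.94, and S100B, under 1 FPKM in every library, rose by 2.08 (limma adjusted p = 0.00202 or lower). Of the 6 glioma markers, 5 were negative, and at an adjusted p below 0.01, 2 were lower, 1 was higher and 3 did not pass. Of the 4 neuronal genes tested, 1 was lower, 1 was higher and 2 did not pass. Over all rows, 15.5% were lower and 20.3% higher by this rule. Their part in the members' values at day 7 was not tested. In bulk RNA, fewer cells of a type and less RNA per cell cannot be told apart.

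One control library stood apart for the mitochondrial ribosomal genes. In sh-Luci-3d replicate 3 the value lay above both other controls for 54 members and below both for 18, and the median member differed from the mean of the other controls by 0.24 on the log2 scale, against -0.05 over all rows tested. The shift was largest for MRPL52, at 15.5, 18.0 and 37.2 FPKM in the control libraries, a difference of 1.15 on the log2 scale. It ran with base composition. Spearman's rho between the shift and the GC content of the longest annotated transcript was 0.67 across the 78 members and 0.66 across 13328 rows, where all points come from the same libraries. Counts of members that rest on sh-Luci-3d are therefore given with and without this library, and so are single genes where it moves a call or a value strongly.

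**Figure D1:**
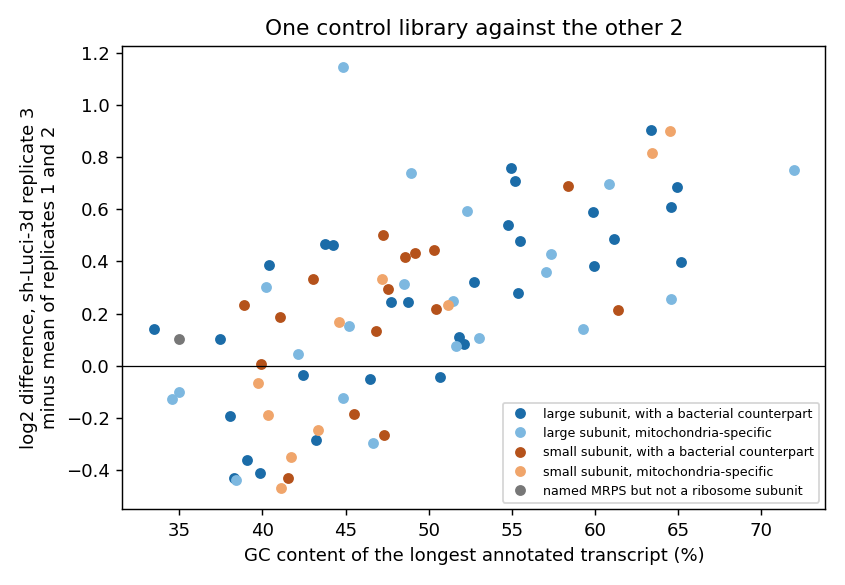
The difference between sh-Luci-3d replicate 3 and the mean of replicates 1 and 2, in log2(FPKM + 0.1), is plotted against transcript GC content in percent for the 78 genes, coloured by subunit and origin. Most points lie above 0 and the points rise with GC content, although the top point, MRPL52 at 1.15, has a GC content of only 44.9%.

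All 78 genes were detected in every library. Their means over the 9 libraries ran from 2.92 to 131.7 FPKM with a median of 26.6 FPKM, a level that 16.3% of the 15551 rows tested reached, and 67 of the members averaged at least 10 FPKM. MRPL41, a mitochondria-specific protein of the large subunit, had the highest mean, followed by MRPL37 and MRPS24. At the other end stood MRPL50, at 3.23, 2.84 and 2.81 FPKM in control cells, with MRPL42 and MRPL19 next. These 3 lowest genes lay within 2.12 to 8.04 FPKM in every library. The order of the levels was largely kept, since Spearman's rho between the members' group means was 0.99 for sh-Luci-3d and sh-Ptbp1-3d, and 0.92 and 0.93 when sh-Ptbp1-7d was set against them, which is a description of shared genes and not a test. As a sum, the members took 0.581%, 0.574% and 0.716% of all FPKM in control cells, 0.654%, 0.640% and 0.633% in sh-Ptbp1-3d, and 0.577%, 0.568% and 0.568% in sh-Ptbp1-7d. The sh-Ptbp1-7d libraries lay below all sh-Ptbp1-3d libraries, and overlapped with sh-Luci-3d.

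Between day 3 and day 7 of the knockdown, a part of the mitochondrial ribosomal genes fell and a smaller part rose, nearly all by less than 2-fold. At day 7 against day 3 of the knockdown, 18 of the 78 members were lower and 8 were higher at a limma adjusted p below 0.01, and 52 did not pass. Of the 15551 rows tested, 15.5% were lower and 20.3% were higher by the same rule, against 23.1% and 10.3% of the members. Among the 5831 rows with a mean of at least 10 FPKM, where most members are found, the shares were 24.8% lower and 21.8% higher, so the share of members that fell was close to that of other well expressed genes. Only MRPL33 also had a fold change above 2, with 5.9% of all rows lower and 8.31% higher past both thresholds. The median log2 fold change was -0.13 over the members (interquartile range -0.42 to 0.12) and 0.09 over all rows, or -0.03 over rows of at least 10 FPKM. In sign, 53 members were negative and 25 positive, and with values rescaled to TPM, which sum to the same total in each library, this split was 43 to 35. The 3 libraries of each group did not overlap for 35 members that were lower and 18 that were higher, where 27% and 35.3% of all rows did so. The members differed less among themselves than other genes did, with an SD of log2 fold changes of 0.41 against 0.79 over rows of at least 10 FPKM. Without sh-Ptbp1-3d replicate 3, 12 members were lower and 5 higher (13.4% and 15.4% of rows), and without replicate 1 of that group 8 and 5 (11.9% and 16%). Leaving out replicate 2 of that group gave 8 lower and 7 higher (11.7% and 16.1% of rows). Without 1 of the sh-Ptbp1-7d libraries, 9 to 11 were lower and 6 or 7 higher (12.6% to 13.2% and 14.9% to 17.6% of rows). Without sh-Luci-3d replicate 3, which enters this comparison through the estimate of the spread and the rows tested, 27 were lower and 12 higher (18.9% and 24.4% of rows). For a single gene, the smallest two-sided p of an exact permutation test is 0.1 at this group size, so single genes are given with limma's adjusted p.

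**Figure D2:**
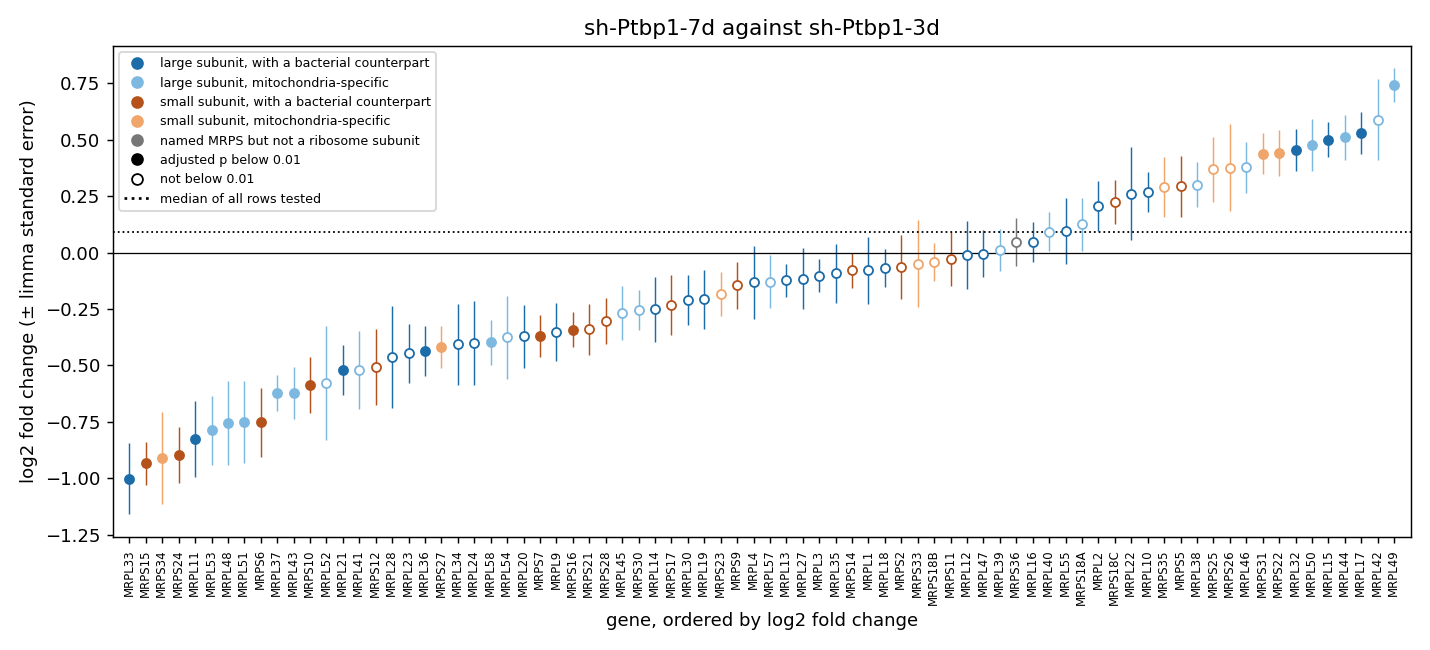
Log2 fold changes from day 3 to day 7 of the knockdown for the 78 genes, ordered from lowest to highest, with limma standard errors as bars (3 libraries per group). Filled points passed an adjusted p below 0.01, 18 to the left of 0 and 8 to the right, colours give subunit and origin, and the dotted line is the median of all rows tested (0.09).

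Small subunit proteins with a bacterial counterpart, which form the core around the decoding site, held 6 genes that fell and 0 that rose among 16, and 10 did not pass. In sign, 14 of the 16 were negative and the median log2 fold change was -0.32. In percent, 37.5% of the 16 were lower, against 15.5% of all rows and 24.8% of rows of at least 10 FPKM. Among rows of at least 40 FPKM, 37.9% were lower and 64.9% were negative. MRPS15, on chromosome 1 from 36455718 to 36464437 (GRCh38, minus strand), encodes a protein that binds the small ribosomal RNA early in assembly. It stood at 70.5, 76.0 and 89.9 FPKM in control cells, 81.2, 80.05 and 70.7 FPKM in sh-Ptbp1-3d, and 39.9, 40.5 and 40.6 FPKM in sh-Ptbp1-7d. The sh-Ptbp1-7d libraries were nearly equal and far below the rest, and the log2 fold change against sh-Ptbp1-3d was -0.93 ± 0.10 (SE, limma adjusted p = 1.84e-05). MRPS24, a counterpart of the bacterial protein S3 at the entry of the messenger channel, lies on chromosome 7 from 43866558 to 43869893 (minus strand). It had 80.2, 80.1 and 113.4 FPKM in control cells, 103.0, 97.0 and 94.4 FPKM in sh-Ptbp1-3d, and 50.9, 52.5 and 54.8 FPKM in sh-Ptbp1-7d. Both earlier groups lay above all sh-Ptbp1-7d libraries, and day 7 differed from day 3 by -0.90 ± 0.12 on the log2 scale (SE, limma adjusted p = 0.000146). A readthrough transcript, URGCP-MRPS24, shares the strand and part of the sequence of MRPS24 and averaged 0.217 FPKM.

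MRPS6, the counterpart of a protein on the platform of the bacterial small subunit, fell from 16.4, 13.1 and 15.8 FPKM in sh-Ptbp1-3d to 7.61, 8.30 and 11.1 FPKM in sh-Ptbp1-7d (log2 fold change -0.75, limma adjusted p = 0.00206). Its sh-Luci-3d values of 19.3, 15.5 and 19.8 FPKM were above all those of sh-Ptbp1-7d. MRPS10, MRPS7 and MRPS16 completed the group, with log2 fold changes of -0.59, -0.37 and -0.34. MRPS12, the counterpart of S12 at the decoding centre, had 64.6, 68.5 and 56.7 FPKM in sh-Ptbp1-3d and 46.2, 40.4 and 46.7 FPKM in sh-Ptbp1-7d, which do not overlap, but its adjusted p of 0.0265 missed the limma threshold. The 2 positive members, MRPS18C and MRPS5, had log2 fold changes of 0.22 and 0.29 and did not pass.

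The 10 mitochondria-specific proteins of the small subunit were divided, with 2 lower and 2 higher, against 15.5% and 20.3% of all rows. Their median log2 fold change was 0.13. MRPS34, mutated in a form of Leigh syndrome, lies on chromosome 16 from 1771890 to 1773155 (minus strand). It was at 53.2, 57.0 and 102.8 FPKM in control cells, 92.0, 86.7 and 89.0 FPKM in sh-Ptbp1-3d, and 49.1, 51.8 and 41.8 FPKM in sh-Ptbp1-7d. The fall from sh-Ptbp1-3d was -0.91 ± 0.20 on the log2 scale (SE, limma adjusted p = 0.0036), whereas 2 of the control libraries were close to the sh-Ptbp1-7d values. MRPS27 was lower with -0.42. MRPS22 and MRPS31 were each higher with 0.44, and MRPS22, another disease gene, moved from 11.1, 12.7 and 11.7 FPKM in sh-Ptbp1-3d to 16.4, 14.5 and 17.4 FPKM in sh-Ptbp1-7d. Its control values of 15.0, 15.9 and 13.6 FPKM overlapped with those of day 7.

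In the large subunit, 4 of the 30 proteins with a bacterial counterpart were lower and 3 were higher, against 15.5% and 20.3% of all rows. Their median was -0.12. MRPL33, a small protein near the site where tRNA leaves the ribosome, lies on chromosome 2 from 27771717 to 27988087 in the longest model (plus strand). It showed the lowest log2 fold change of all 78, -1.0 ± 0.16 (SE, limma adjusted p = 0.000405). Its values were 23.2, 23.0 and 32.0 FPKM in control cells, 24.9, 25.2 and 35.0 FPKM in sh-Ptbp1-3d, and 13.2, 13.3 and 15.5 FPKM in sh-Ptbp1-7d, with no overlap between day 7 and the rest. BABAM2 overlaps it on the same strand and was itself lower by -0.48 on the log2 scale, and reads of the shared part could be split between the 2 genes. MRPL21 and MRPL36 were lower as well, with -0.52 and -0.44. Their values did not overlap between the knockdown days.

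Of the 21 mitochondria-specific proteins of the large subunit, 6 were lower and 3 higher, against 15.5% and 20.3% of all rows. Their median was -0.25. MRPL37, on chromosome 1 from 54184041 to 54225464 (plus strand), was at 104.6, 104.4 and 112.4 FPKM in control cells, 111.2, 106.8 and 101.0 FPKM in sh-Ptbp1-3d, and 65.2, 66.9 and 75.5 FPKM in sh-Ptbp1-7d. Day 3 and control were alike in range, day 7 lay below both, and the log2 fold change was -0.62 ± 0.08 (SE, limma adjusted p = 9.2e-05). MRPL51 fell from 92.1, 84.4 and 78.9 FPKM to 56.6, 50.9 and 44.4 FPKM (-0.75, limma adjusted p = 0.00561), and 2 of its control libraries, at 64.8 and 57.6 FPKM, were nearer to day 7 than to day 3. MRPL43 fell by 0.62 on the log2 scale. MRPL41, the most abundant member, had 150.0, 149.6 and 135.1 FPKM in sh-Ptbp1-3d and 107.8, 95.8 and 99.6 FPKM in sh-Ptbp1-7d, and with an adjusted p of 0.0277 it missed the limma threshold.

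The 8 genes that rose were MRPL49, MRPL17, MRPL44, MRPL15, MRPL50, MRPL32, MRPS22 and MRPS31, with log2 fold changes from 0.44 to 0.74. MRPL49, a mitochondria-specific protein on chromosome 11 from 65122183 to 65127371 (plus strand), was at 21.0, 19.1 and 21.1 FPKM in control cells, 23.8, 22.2 and 22.5 FPKM in sh-Ptbp1-3d, and 39.7, 36.7 and 38.2 FPKM in sh-Ptbp1-7d. The day 7 libraries stood far above the others (0.74 ± 0.08, SE, limma adjusted p = 1.74e-05). MRPL17, a protein at the exit of the polypeptide tunnel, moved from 15.9, 15.1 and 15.1 FPKM in sh-Ptbp1-3d to 23.3, 20.8 and 22.6 FPKM in sh-Ptbp1-7d (0.53, limma adjusted p = 0.000699). MRPL44, a protein with a ribonuclease III fold that is mutated in a cardiomyopathy of infancy, moved from 14.3, 13.7 and 13.1 FPKM to 17.5, 19.9 and 21.4 FPKM (0.51, limma adjusted p = 0.00149). For both genes every day 7 library exceeded every earlier library. MRPL15, a core protein of the large subunit, moved from 23.4, 22.7 and 23.2 FPKM to 30.3, 34.0 and 33.9 FPKM (0.50, limma adjusted p = 0.000332). MRPL42 had a larger log2 fold change of 0.59, at 2.74, 2.53 and 2.33 FPKM in sh-Ptbp1-3d and 4.76, 3.92 and 3.07 FPKM in sh-Ptbp1-7d, but its adjusted p of 0.0191 did not pass.

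**Figure D3:**
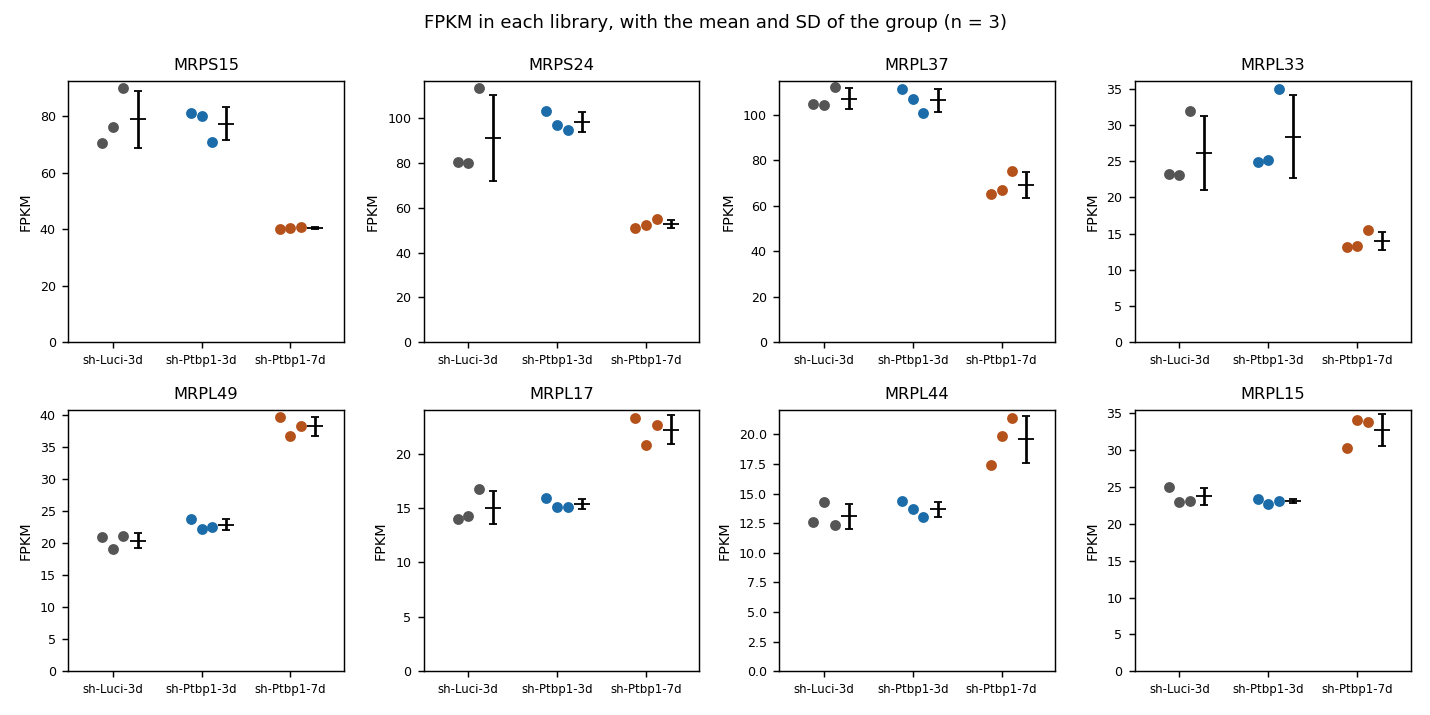
FPKM of 4 genes that fell and 4 that rose from day 3 to day 7 of the knockdown, the 8 named genes past the threshold in every alternative, each point a library and each black bar the group's mean ± SD (n = 3), with axes that start at 0. In all 8 panels the sh-Ptbp1-7d points are separated from both other groups, as for MRPS15 at 39.9 to 40.6 FPKM against at least 70.5 FPKM elsewhere.

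Structural parts of the large subunit held genes that passed beside genes that did not. Over all rows, 15.5% were lower and 20.3% higher. The stalk, which recruits translation factors, was represented by MRPL10, MRPL11, MRPL12 and MRPL53. MRPL11 fell from 14.2, 20.8 and 16.1 FPKM in sh-Ptbp1-3d to 12.1, 8.58 and 8.16 FPKM in sh-Ptbp1-7d (-0.83, limma adjusted p = 0.002), and MRPL53 from 43.1, 51.7 and 47.0 FPKM to 26.7, 29.3 and 25.9 FPKM (-0.79, limma adjusted p = 0.00154). MRPL10 and MRPL12, the latter the repeated flexible arm of the stalk, did not pass, with 0.27 and -0.01. Of the 8 proteins of the central protuberance, MRPL48 and MRPL58 were lower, with -0.75 and -0.40, and 0 was higher. MRPL48 had 8.76, 9.94 and 7.57 FPKM in sh-Ptbp1-3d and 3.90, 6.82 and 5.03 FPKM in sh-Ptbp1-7d. MRPL58 is a peptidyl-tRNA hydrolase that frees stalled ribosomes. Around the polypeptide exit, 1 of 6 proteins changed, MRPL17, and MRPL45, which holds the ribosome to the inner membrane, had -0.27 (limma adjusted p = 0.0824). MRPL3, near the peptidyl transferase centre, had -0.10 and did not pass.

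The MRPS18 family has 3 members that occupy different places, MRPS18A in the large subunit and MRPS18B and MRPS18C in the small one. Their log2 fold changes were 0.12, -0.04 and 0.22, and none of the 3 passed the limma threshold (adjusted p = 0.397, 0.716 and 0.08). The sign for MRPS18B changed under other scalings, at 0.06 with TPM. MRPS30, a large subunit protein in spite of its name, had -0.25 (limma adjusted p = 0.0341). MRPS36, which is a subunit of the oxoglutarate dehydrogenase complex and not of the ribosome, had 13.6, 15.2 and 12.9 FPKM in sh-Ptbp1-3d and 12.5, 15.6 and 15.1 FPKM in sh-Ptbp1-7d, a difference of 0.05 that turned to -0.04 with median-ratio scaling.

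**Figure D4:**
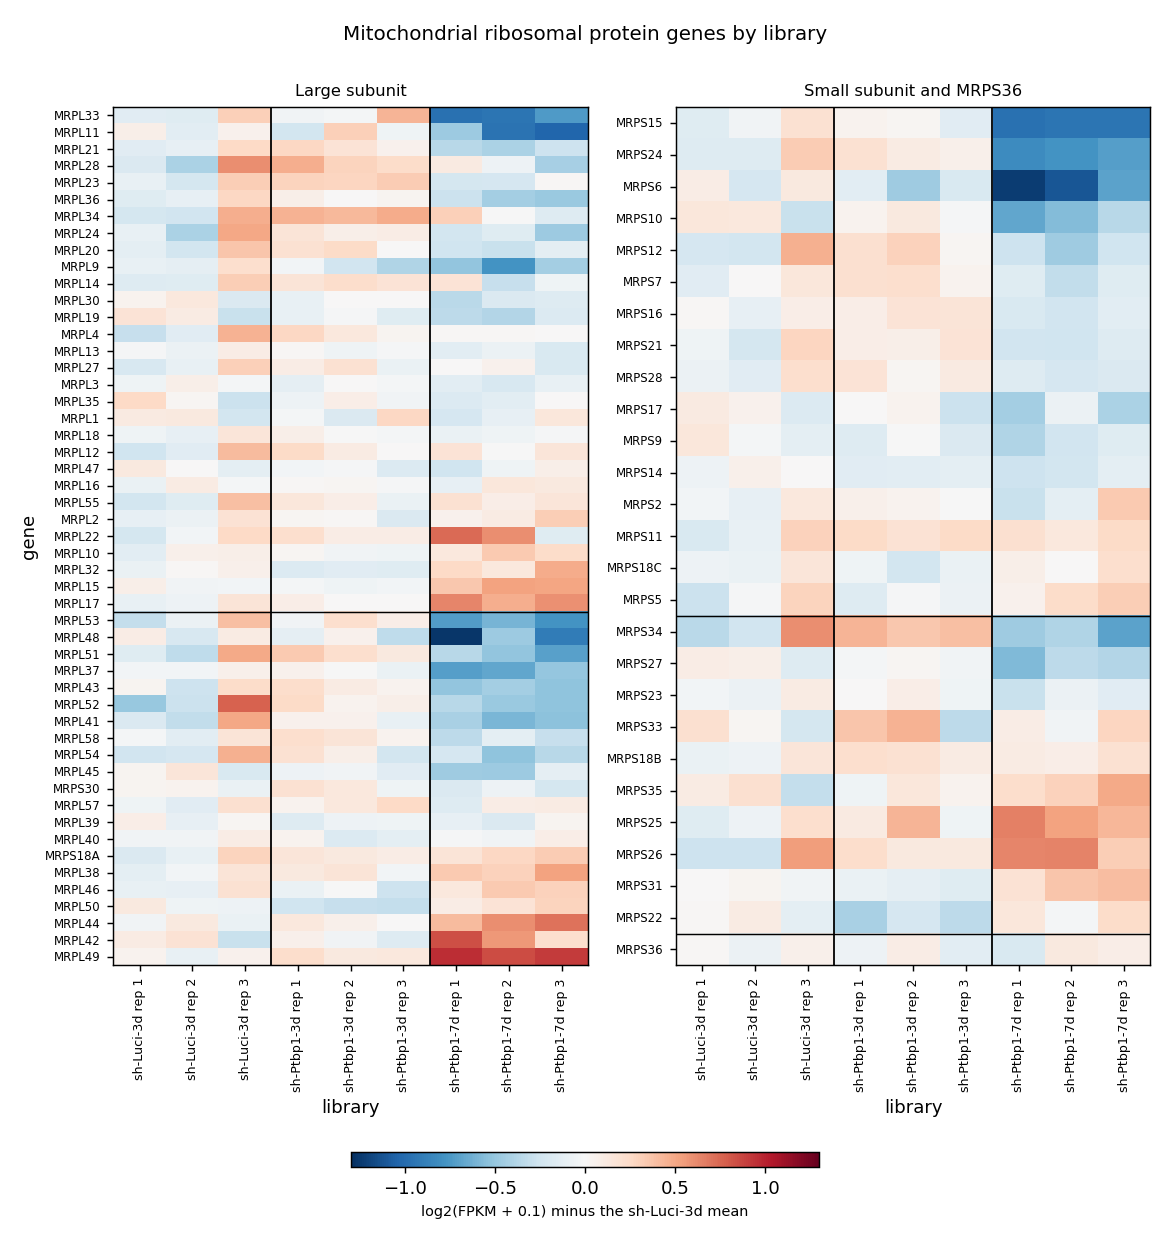
Each row is 1 of the 78 genes and each column 1 of the 9 libraries, and the colour gives log2(FPKM + 0.1) minus the sh-Luci-3d mean of that gene. Horizontal lines separate proteins with a bacterial counterpart (above) from mitochondria-specific ones (below) and MRPS36 (bottom right), and MRPS15, MRPS24 and MRPL37 are blue in all 3 sh-Ptbp1-7d columns.

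The transcripts of the 2 subunits were also compared as sums, which do not measure the subunits themselves. The summed FPKM of large subunit genes divided by that of small subunit genes, MRPS36 left out, was 2.16, 2.12 and 2.29 in sh-Luci-3d, 2.18, 2.13 and 2.15 in sh-Ptbp1-3d, and 2.47, 2.39 and 2.32 in sh-Ptbp1-7d. The sh-Ptbp1-7d libraries exceeded all others, with a mean of 2.39 ± 0.07 against 2.15 ± 0.02 (SD, n = 3) in sh-Ptbp1-3d, a contrast for which 0.1 is again the smallest p of an exact permutation test. The sum is led by abundant genes. Of the 19 members with a mean of at least 40 FPKM, 7 were lower, 0 was higher and 18 were negative at day 7 against day 3, whereas of the 32 members under 20 FPKM, 3 were lower and 5 were higher. All rows followed the same order, with 37.9% lower and 18.1% higher among the 1656 rows of at least 40 FPKM, and 11.4% and 20.3% among the 12164 rows under 20 FPKM. In percent, 36.8% of the abundant members were lower, a share close to that of other rows at this level. Spearman's rho between mean FPKM and log2 fold change was -0.46 across the members, which share the same libraries, and with transcript GC content it was -0.28.

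Many of the genes are packed against others, and 38 of the 78 overlap another protein-coding gene in GENCODE v29. For 29 members (37.2%) another protein-coding gene starts on the opposite strand within 1000 bases of their start, against 13.0% of 19940 protein-coding genes. In 28 such pairs both genes were tested, and in 6 of them both passed the threshold at day 7 against day 3, 3 in the same direction and 3 in opposite directions. How often both genes of such a pair pass over all genes was not computed. MRPS34 and EME2 had log2 fold changes of -0.91 and -0.89, and MRPL51 and the condensin gene NCAPD2 had -0.75 and -1.08. MRPL50 and the zinc finger gene ZNF189 had 0.48 and 0.79. By contrast, MRPL43 and the mitochondrial helicase gene TWNK had -0.62 and 0.60, MRPL32 and the proteasome gene PSMA2 had 0.45 and -0.41, and MRPL49 and FAU had 0.74 and -0.58. MRPL49 also overlaps SYVN1 on the opposite strand, which was higher by 1.28. Because no source used here gives the strand setting of the libraries, reads from such overlaps cannot be assigned with certainty. Of the 40 members without an overlapping protein-coding gene, 7 were lower and 5 higher (17.5% and 12.5%). Of the 38 with one, 11 were lower and 3 higher (28.9% and 7.89%). Over all rows the shares were 15.5% and 20.3%, and over rows of at least 10 FPKM 24.8% and 21.8%. Whether overlap bears on these counts was not tested. Pseudogenes are a further source of shared reads, and 34 members have named ones, 75 in all.

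Promoter sequences were available for 69 of the members from RefSeq (GRCh38.p14), each running from 250 bases before to 50 bases after the annotated start, and 4 are shown as examples of the letters searched in genes that passed the threshold, chosen after their values were seen. The letters searched on both strands were CCGGAAG for the ETS family, whose member GABPA is known as nuclear respiratory factor 2, and AAGATGGCG for YY1. For NRF1 they were its full palindromic core, by name, and separately the shorter TGCGCA. The short form is not contained in the full core, but the 2 overlap in the MRPL17 window below. Capitals mark these letters, read 5′ to 3′ on the strand of the gene.
MRPS34 (chr16:1773085-1773384, minus strand): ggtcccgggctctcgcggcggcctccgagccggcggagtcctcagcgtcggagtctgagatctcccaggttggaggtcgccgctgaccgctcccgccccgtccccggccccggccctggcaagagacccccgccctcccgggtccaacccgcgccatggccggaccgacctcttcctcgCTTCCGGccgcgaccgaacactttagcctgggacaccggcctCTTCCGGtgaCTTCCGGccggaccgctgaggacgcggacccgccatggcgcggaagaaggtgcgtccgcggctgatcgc
MRPL53 (chr2:74472631-74472930, minus strand): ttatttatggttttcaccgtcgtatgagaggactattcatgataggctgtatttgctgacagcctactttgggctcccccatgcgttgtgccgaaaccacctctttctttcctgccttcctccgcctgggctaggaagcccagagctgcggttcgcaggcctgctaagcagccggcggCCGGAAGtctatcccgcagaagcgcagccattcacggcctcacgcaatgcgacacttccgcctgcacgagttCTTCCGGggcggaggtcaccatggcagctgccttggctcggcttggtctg
MRPS24 (chr7:43869468-43869767, minus strand): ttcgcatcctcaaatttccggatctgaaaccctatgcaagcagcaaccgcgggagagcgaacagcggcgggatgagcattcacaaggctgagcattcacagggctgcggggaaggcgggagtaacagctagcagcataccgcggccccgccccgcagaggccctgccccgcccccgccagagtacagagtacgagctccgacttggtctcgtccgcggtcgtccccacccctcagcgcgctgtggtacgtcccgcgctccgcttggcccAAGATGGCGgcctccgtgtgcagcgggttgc
MRPL17 (chr11:6683291-6683590, minus strand): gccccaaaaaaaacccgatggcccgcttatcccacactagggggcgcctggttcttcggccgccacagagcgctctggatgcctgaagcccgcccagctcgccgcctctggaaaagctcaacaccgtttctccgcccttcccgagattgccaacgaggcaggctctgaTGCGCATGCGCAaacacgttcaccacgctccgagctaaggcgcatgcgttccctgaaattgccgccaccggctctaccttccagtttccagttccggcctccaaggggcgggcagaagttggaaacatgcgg

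The MRPS34 window holds 3 ETS cores and that of MRPL53 holds 2, both genes having fallen at day 7, but the windows of MRPS22, which rose, hold 3 as well. The MRPS24 window holds the YY1 letters, which include an ATG, near its end, and MRPL17, which rose, is the only member whose window holds the full NRF1 letters. The ETS core was found in the windows of 43.5% of the 69 members, against 21.6% of 10784 tested genes with a window and 12.2% of 27305 genes in all. The YY1 core was found in 18.8% of members against 4.5% of tested genes, and TGCGCA in 21.7% against 15.7%. The full NRF1 letters were in 1.45% of members against 2.6%, the Sp1 box GGGCGG in 60.9% against 75.9%, and the NF-Y box CCAAT in 33.3% against 43.7%. With regard to day 7 against day 3, 9 of the 30 members with an ETS core were lower and 2 higher (30% and 6.67%). Of the 39 without it, 8 were lower and 5 higher (20.5% and 12.8%). Over all rows the shares were 15.5% and 20.3%, and over rows of at least 10 FPKM 24.8% and 21.8%. Matches of letters are a description and no evidence of binding. Of the factors themselves, GABPA had a log2 fold change of -0.19, NRF1 of 0.20 and YY1 of -0.05, and none passed the limma threshold (adjusted p = 0.255, 0.261 and 0.657).

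The other genes of mitochondrial gene expression were mixed as well, by lists that follow the steps of the pathway. Their counts stand beside 15.5% of all rows lower and 20.3% higher by the same rule. Of 9 regulators, PPARGC1A, the coactivator PGC-1alpha, rose from 1.34, 1.62 and 1.48 FPKM in sh-Ptbp1-3d to 6.29, 6.42 and 5.08 FPKM in sh-Ptbp1-7d (1.93 ± 0.15, SE, limma adjusted p = 2.12e-06). Its relative PPRC1 rose by 0.73 on the log2 scale, and 0 regulators were lower, with MYC at -0.62 (limma adjusted p = 0.0125). Of 15 genes of mitochondrial transcription and RNA processing, 1 fell, SLIRP with -0.68, and 3 rose, the highest being the RNA-degrading enzyme gene PNPT1 with 1.04. Of 24 assembly and rRNA modification genes, YBEY fell with -0.63 and 2 rose, GTPBP10 with 0.60 and MRM3 with 0.38. Of 5 ribosomal proteins with symbols of another form, DAP3 fell with -0.36 and PTCD3 rose with 0.58. The lowest of them, GADD45GIP1 with -0.38, did not pass.

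Of 13 translation factor genes, 2 fell, the elongation factor genes GFM1 with -0.58 and TUFM with -0.47, and C12orf65, a ribosome rescue factor, rose with 0.52. The 20 genes of mitochondrial aminoacyl-tRNA synthetases and the amidotransferase moved both ways, with 7 lower and 4 higher. Over all rows, 15.5% were lower and 20.3% higher, and 24.8% and 21.8% among rows of at least 10 FPKM. IARS2, for isoleucine, fell from 67.5, 66.9 and 59.4 FPKM in sh-Ptbp1-3d to 36.0, 37.9 and 35.7 FPKM in sh-Ptbp1-7d (-0.82, limma adjusted p = 2.63e-05), and PARS2, for proline, rose with 0.73. The 13 mitochondrially encoded protein genes, which are what these ribosomes translate, were all negative, with 6 lower past the threshold, 0 higher and a median of -0.60. The lowest of them, MT-ATP6, had 5909, 6006 and 5588 FPKM in sh-Ptbp1-3d and 1961, 1981 and 2585 FPKM in sh-Ptbp1-7d (-1.43, limma adjusted p = 1.76e-05). MT-CO2 had -0.09 and did not pass. In percent, 46.2% of the 13 genes were lower. Among rows of at least 40 FPKM, 37.9% were lower and 64.9% were negative in sign.

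The ribosome of the cytosol showed a different picture. Of its 83 protein genes tested, 68 were lower, 0 was higher and all 83 were negative. By the same rule 15.5% of all rows were lower and 20.3% higher, and 37.9% and 18.1% of rows of at least 40 FPKM. The median log2 fold change was -0.91 against -0.13 for the mitochondrial genes, 2 lists that were not matched for level. The lowest was RPS19 with -2.0, and RPS27, with -0.03, did not pass. The 6 proliferation genes MKI67, TOP2A, CCNB1, CDK1, PCNA and MCM2 were all lower, from CCNB1 with -1.49 to PCNA with -0.36 and a median of -0.75, and their part in the members' values was not tested. The difference between the lists was not tested either, since genes are not replicates of a condition.

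Set against the control of day 3, sh-Ptbp1-7d gave fewer calls, and the comparison shares its day 7 libraries with the one above. Of the 78 members, 12 were lower and 6 higher at a limma adjusted p below 0.01, where 15% of all rows were lower and 20.6% higher, and the median was -0.11 against 0.10 over all rows. Among rows of at least 10 FPKM, 23.6% were lower and 22.7% higher, against 15.4% and 7.69% of the members. Without sh-Luci-3d replicate 3, 14 were lower and 10 higher, with 17.1% and 22.7% of rows, and the median was -0.06. The libraries did not overlap for 25 lower and 11 higher members, against 23.1% and 32.8% of rows, and for 31 and 23 without that library, against 29.8% and 39.4% of rows. Past 2-fold, where 5.68% of rows were lower and 8.93% higher, only MRPS6 was left, with -1.02 ± 0.15 (SE, limma adjusted p = 0.000276). Without sh-Luci-3d replicate 3 it had -0.96 and 0 members were past 2-fold. MRPS15 had -0.96, MRPL48 -0.88, MRPL33 -0.88, MRPL11 -0.82, MRPS24 -0.77, MRPL53 -0.70 and MRPL37 -0.63, and MRPS10, MRPL43, MRPS27 and MRPL9 were also lower. Without sh-Luci-3d replicate 3, MRPS15 had -0.86, MRPL48 -0.83, MRPL33 -0.73, MRPL11 -0.79, MRPS24 -0.60, MRPL53 -0.50 and MRPL37 -0.60. In the controls MRPL9 had 40.2, 39.5 and 49.9 FPKM, above its day 7 values of 30.1, 24.98 and 31.6 FPKM. Its log2 fold change was -0.58, or -0.47 without sh-Luci-3d replicate 3. On the other side, MRPL49 was higher by 0.90, MRPL44 by 0.58, MRPL17 by 0.56, MRPS25 by 0.54, MRPL15 by 0.46 and MRPL38 by 0.39. In the same order, the values without that library were 0.93, 0.54, 0.65, 0.65, 0.45 and 0.47. MRPS34, with -0.52, did not pass here (limma adjusted p = 0.0562), and without sh-Luci-3d replicate 3 it had -0.22 (limma adjusted p = 0.0651). The 18 genes that passed also passed without that library, and 6 were added, MRPL19 and MRPL45 lower and MRPS11, MRPS18A, MRPS26 and MRPL55 higher.

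At day 3 no change of a mitochondrial ribosomal gene was detected against the control in the full data. In sh-Ptbp1-3d against sh-Luci-3d, 0 of the 78 members passed a limma adjusted p of 0.05, where 0.0129% of all rows were lower and 0.0193% higher, and 4 members had an unadjusted p below 0.05, as did 7.24% of rows. The lowest adjusted p was 0.557, for MRPS22, with -0.32 ± 0.10 (SE). MRPL34, at 28.8, 28.4 and 46.8 FPKM in the controls and 46.1, 45.3 and 47.0 FPKM in the knockdown, had 0.45, and MRPL50 had -0.29. Groups did not overlap for 5 members that were lower and 2 that were higher (4.93% and 5.86% of rows), and the median log2 fold change was 0.04, against 0.01 for all rows.

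This depended on a single control library. Without sh-Luci-3d replicate 3, 12 members were higher and 1 lower at an adjusted p below 0.05, where 5.02% of 15582 rows were higher and 1.35% lower. The 12 were MRPS34, MRPL34, MRPL28, MRPL52, MRPL51, MRPL23, MRPS26, MRPS12, MRPS11, MRPL4, MRPS24 and MRPS18B, with log2 fold changes from 0.25 to 0.70, and MRPS22 was lower with -0.39. The highest, MRPS34, was at 53.2 and 57.0 FPKM in the other controls and at 86.7 to 92.0 FPKM in sh-Ptbp1-3d (limma adjusted p = 0.00623). These differences also ran with base composition, with a Spearman's rho between GC content and log2 fold change of 0.66 across the 78 members and 0.56 across 13346 rows. When each library was in addition corrected for GC content and transcript length, 0 members were higher and 0 lower, with 0.289% and 0.103% of rows. The folds were not all smaller. MRPL52 had 0.51 before and 0.57 after the correction, MRPL51 0.48 and 0.47, and MRPS24 0.29 and 0.32, whereas MRPS34 went from 0.70 to 0.37 and MRPL4 from 0.37 to 0.04. The lowest adjusted p among the 12 was 0.0538, for MRPS11 and MRPS24, and the members' median log2 fold change was 0.09 both before and after.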

How the data were processed

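Total RNA of U251 cells was extracted with TRIzol and sequenced on Illumina HiSeq, 9 libraries in 3 groups of 3, grouped by their labels. Expression was deposited as FPKM, 1 value for each gene in each library. The submitters' processing notes name HISAT2 and GRCh38, and the counting program, the strand setting and versions are not given in the sources used here. The authors also deposited coordinates of loci assembled from the reads, values of another kind that were used only to compare the build: 49.6% of 43315 exons there have the exact ends of one in GENCODE v29 (GRCh38). FPKM values carry no steps of whole reads, so the depth of the libraries is unknown and no counting interval or count test was used. They sum to 367412 to 404922 per library.

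Values were tested as log2(FPKM + 0.1), a scale that understates the changes of low genes, for the 15551 rows with a mean of at least 0.1 FPKM, all 78 members among them. limma 3.58.1 in R 4.3.3 fitted the 3 groups in all 9 libraries with an intensity trend, with Benjamini-Hochberg adjustment across every row. The thresholds of the study's methods were used, FDR 0.05 for sh-Ptbp1-3d against the control, FDR 0.01 for day 7 against day 3, and fold 2. For day 7 against the control, FDR 0.01 was chosen here. The fit was also run on simulated data with independent noise for each gene and library. That setting holds no shift shared by many genes, such as that of sh-Luci-3d replicate 3. No source says that the 3 libraries of a group came from separate cultures, so p-values measure the spread between these libraries, which may be technical. Of the values above 0, at most 0.00626% were identical between any pair of libraries.

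The members, the lists and the alternatives were chosen with earlier results of these data known. Named with values were the 10 lowest and 5 highest log2 fold changes from day 3 to day 7 among members of at least 1 FPKM. Also named were the 3 lowest p at day 3, the 3 highest and 3 lowest means, and a set fixed for roles. The lowest and highest gene of each list of other genes followed, blood and immune markers aside. Members past a threshold, neighbouring genes, TUBB3, STMN2, DCX and MRPL52 are named outside this rule, after their values were seen. The 22 alternatives changed the pseudocount, the filter, the scaling, the model, the threshold and the libraries. Leaving out sh-Luci-3d replicate 3 together with a GC and length correction was added after seeing the data. Plots used matplotlib 3.10.9 (Python 3.11.15).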

Additional observations from a re-analysis of the deposited data

How the results depend on the processing

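Depth is unknown, 85.7% of rows have a GC content and length, and 1 library is a large part of a group of 3. Of the 31 named genes, 17 passed the threshold at day 7 against day 3 of the knockdown, all 17 kept their sign in every alternative, and 8 passed in every one.

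In that comparison, 18 members were lower (15.5% of rows), and 6 with no filter on low values (8.85%) and 10 with no trend (13.9%). The 8 higher members (20.3% of rows) became 5 with median-ratio scaling (17.3%) and 15 with the GC and length correction (24%). Leaving out single libraries gave 8 to 27 lower and 5 to 12 higher (11.7% to 18.9% and 14.9% to 24.4% of rows). The median log2 fold change of -0.13 moved to -0.030 with TPM and -0.22 with median-ratio scaling, while the median of all rows moved from 0.09 to 0.19 and 0.01. For day 7 against the control, 12 lower members (15% of rows) became 5 with no filter (8.8%) and 7 when only the 2 groups were fitted (11.8%). The 6 higher ones (20.6%) became 10 with the GC and length correction (24.7%) and 11 at an FDR of 0.05 (29%). Without single libraries they were 4 to 10 (15.8% to 22.7% of rows). Its median of -0.11 moved to -0.21 with median-ratio scaling, and was nearer to 0 with TPM (-0.035), with the GC and length correction (-0.032) and without sh-Luci-3d replicate 3 (-0.056). At day 3 the counts of 0 became 1 lower and 12 higher without sh-Luci-3d replicate 3, within a range of 0 to 12 over single libraries left out. Fewer samples or other rows tested are part of these settings, and the cause was otherwise not tested.

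Among the 31 named genes, signs at day 7 against day 3 turned for 3 near 0 that did not pass. Other members were not followed one by one. For MRPL12, at -0.01, the log2 fold change was 0.092 with TPM, 0.035 with quantile normalization, 0.036 without assembled loci and MT genes and 0.17 with the GC and length correction, and it ran from -0.066 to 0.054 without single libraries. For MRPS18B, at -0.04, it was 0.061 with TPM, 0.0046 without assembled loci and MT genes and 0.024 with the correction. For MRPS36, at 0.05, it was -0.042 with median-ratio scaling and -0.012 with quantile normalization, and it ran from -0.015 to 0.15 without single libraries.

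The groups share replicate numbers, and same-numbered libraries deviated together by correlations from -0.03 to 0.05 only, so the numbers were not taken as pairs. With the replicate number as a block, 14 members were lower and 7 higher at day 7 against day 3 (14.8% and 19.4% of rows). Against the control 11 and 5 were called (14.7% and 20% of rows), and 0 and 0 at day 3 (0% and 0% of rows).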
